A study of Mus musculus with 6 samples.

Results

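The 10 factors described here copy and transcribe the mitochondrial genome or switch on the nuclear genes for that machinery: Tfam, Tfb1m, Tfb2m, Polg, Polg2, Polrmt, Ssbp1, Tefm, Nrf1 and Gabpa. Their rows were found by gene symbol, and each of the 10 matched 1 of the 23282 rows of deposited read counts. The tissue was brown adipose tissue (BAT) of male C57BL/6N mice at 5 weeks of age. It came from 3 wild-type mice and 3 Letmd1 knockout (KO) mice, with 1 library from each mouse. The KO mice carried a germline knockout-first allele derived from 1 embryonic stem cell clone, in which an intronic lacZ and neomycin resistance cassette interrupts Letmd1 in every tissue, and not in brown adipocytes alone. Letmd1 encodes a mitochondrial protein. QuantSeq libraries were sequenced, in which each mRNA yields reads from its 3′ end alone, and long genes therefore gain no counts from their length. The labels do not say whether the mice shared litters or cages, so the p-values measure the spread between these mice.

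Mitochondrial DNA is transcribed by its own single-subunit RNA polymerase, POLRMT, which TFAM and TFB2M bring to the promoters and which TEFM keeps moving along the template. The same genome is copied by the polymerase POLG with its accessory subunit POLG2, while SSBP1 coats the displaced single strand and TFAM packages the finished DNA. All of these proteins are made from nuclear genes, many of which are bound by the transcription factors NRF1 and GABPA, and brown adipocytes, which burn fuel for heat, hold an unusually large number of mitochondria.

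Library totals were 9012707 to 10849968 counts for wild-type BAT and 6669577 to 14574273 for Letmd1 KO BAT, and 12995 genes passed the filter on low counts and were tested. Letmd1 itself gave 5658, 6490 and 5266 reads in wild-type mice against 0, 0 and 1 in KO mice, so that all 6 labels matched. Of the marker lists, 11 of 12 brown adipocyte markers were lower in KO BAT (summed level 43625 to 49628 CPM in wild-type and 13694 to 17050 in KO mice, in CPM, counts over the scaled library size), while 13 of 13 macrophage markers (201 to 274 against 1535 to 3658) and 8 of 8 fibroblast and progenitor markers (1533 to 2073 against 4187 to 7002) were higher. Endothelial markers were lower for 3 and higher for 1 of 10 (708 to 808 against 496 to 621), and skeletal muscle markers were higher for 2 of 12 (6.52 to 392 against 300.4 to 1208, with wild-type mouse 2 and KO mouse 3 the highest of their genotypes). All 12 muscle markers had log2 fold changes, KO over wild type, of 1.64 to 3.27. The number called higher was 10 under quantile normalization with limma, 12 without wild-type mouse 2 and 0 in DESeq2. The brown adipocyte list also holds genes of adipocytes in general (Adipoq, Fabp4, Plin1 and Pparg). Most of its summed level is Fabp4, at a mean of 28020 CPM in wild-type and 10462 CPM in KO mice. No marker was at 0 in every mouse of a genotype. Many of these markers differed between the genotypes, as did some of the factors below, and the part of the markers in the results was not tested. In whole tissue, fewer cells of a type and less RNA per cell cannot be told apart.

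Of the 10 factors, 4 were lower in Letmd1 KO BAT (Tfb2m, Tfam, Polrmt and Ssbp1), 2 were higher (Nrf1 and Polg2), and 4 did not pass the test in either direction (Tfb1m, Tefm, Polg and Gabpa), by the quasi-likelihood test of edgeR, with p-values adjusted by Benjamini-Hochberg over all genes tested. Among all genes tested, 22.3% were lower and 23.7% were higher, the shares against which the 4 and 2 of 10 are read. The median log2 fold change of the factors, KO over wild type, was -0.31, against 0.033 for all genes tested. The KO values did not overlap the wild-type values for 7 of the 10 factors, and the same held for 57.3% of all genes tested. Summed over the 10 factors, the level was 313 to 326 CPM in wild-type and 208 to 230 CPM in KO mice. Of the difference of 98.6 CPM between the means, Tfb2m alone made up 62.1%, and the other 9 factors summed to between 242 and 244 CPM in wild-type and between 190 and 216 CPM in KO mice.

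**Figure D1:**
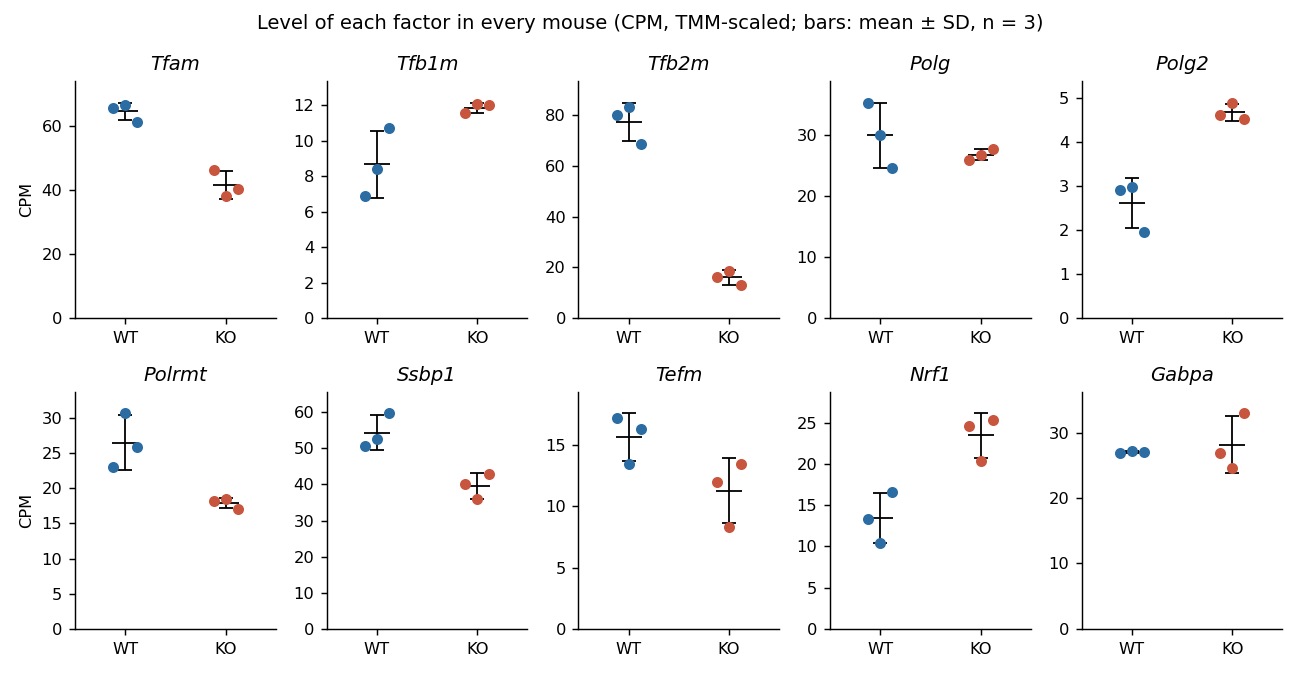
Level of each factor in every mouse, in CPM of the TMM-scaled library (vertical axes, each from 0), for wild-type mice in blue and Letmd1 KO mice in red, with bars for mean ± SD (n = 3). Tfb2m falls from 77.3 to 16.0 CPM, Tfam, Polrmt and Ssbp1 lie lower in every KO mouse, Nrf1 and Polg2 lie higher in every KO mouse, and Gabpa, Polg and Tefm overlap.

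The test scaled libraries by TMM, a method that sets the bulk of genes to no change. Its factors differed between the genotypes (0.852 to 0.886 in wild-type and 1.13 to 1.17 in KO mice), so the scaling moves every fold change by a similar amount. With library size alone, the median of all genes moved up by 0.42 on the log2 scale, the share of calls that were higher moved from 51.6% to 81.2%, and 1 factor was lower (Tfb2m; background 10.5%) while 4 were higher (Tfb1m, Polg2, Nrf1 and Gabpa; background 45.4%). Under quantile normalization with limma, the normalization that the study names, 46.8% of calls were higher, 5 factors were lower (Tefm joined the 4; background 23.7%) and Nrf1 was the 1 factor higher (background 20.9%). Relative to the median of all genes, each factor differed by at most 0.0054 on the log2 scale between TMM and library size alone. This is so by construction, because those scalings differ by a single number per library. Under all 3 scalings, 6 factors lay below that median and 4 above it, a count that quantile normalization alone could have changed. Fold changes below are those of the TMM scaling, and directions are thus relative to the bulk of genes.

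**Figure D2:**
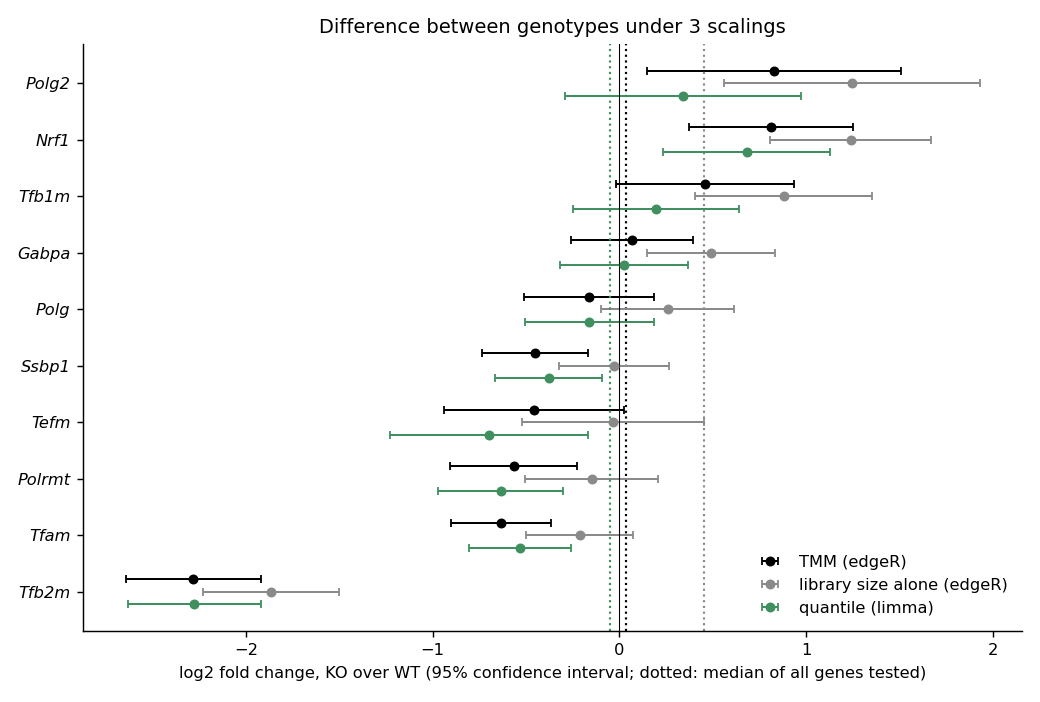
Log2 fold change of each factor, KO over wild type (horizontal axis), with 95% confidence intervals, under TMM (black), library size alone (grey) and quantile normalization (green), with dotted lines at the median of all genes tested under each. Library size alone shifts all 10 factors and the median to the right together, Tfb2m stays at -1.86 or below under each scaling, and Nrf1 lies to the right of 0 under each.

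The promoter windows show what the factors share in sequence. RefSeq windows of GRCm38.p6, 300 bases long with 250 bases before and 50 bases after the start site, were present for all 10 factors (11 windows, 2 of them for Nrf1) and were searched on both strands. The ETS core bound by GABPA, CCGGAAG, was in the windows of 7 factors: Tfam (47 bases before the start), Polg (38), Polg2 (29), Polrmt (43), Ssbp1 (47), Tefm (9) and Gabpa itself (93). Of all 32851 windows, 8.86% hold it. The median share of the letters G and C was 52.7% over all windows. It was 70.3% for Tfam, 59.3% for Polg, 53.3% for Polg2 and 52% for Polrmt. For Ssbp1, Tefm and Gabpa it was 58%, 55.7% and 59.3%, and the comparison was not matched for it. These 7 include 3 of the 4 factors that were lower, 1 of the 2 that were higher, and 3 of the 4 that passed in neither direction.

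The NRF1 core, GCGCANGC, was in the windows of Tfb2m (13 bases after the start) and Polrmt (133 and 4 bases before and 2 after it, the last pair overlapping), against 9.95% of all windows. The YY1 core AAGATGGC was in the window of Gabpa (2.75% of all windows). Tfb1m and both windows of Nrf1 held none of the cores searched. The ERR core CAAGGTCA (1.56% of all windows), the C/EBP-ATF element TGATGCAA (0.895%) and the cAMP response element TGACGTCA (1.79%) were in no window of a factor. A match is a run of letters and was not tested as a binding site. The windows of the 4 factors that fell and of Polg2 are printed 5′ to 3′ on the strand of the gene, with the motif letters in capitals: Tfb2m from chr1:179546227-179546526 (minus strand), Tfam from chr10:71237995-71238294 (minus), Polrmt from chr10:79746532-79746831 (minus), Ssbp1 from chr6:40471218-40471517 (plus) and Polg2 from chr11:106779488-106779787 (minus).
Tfb2m: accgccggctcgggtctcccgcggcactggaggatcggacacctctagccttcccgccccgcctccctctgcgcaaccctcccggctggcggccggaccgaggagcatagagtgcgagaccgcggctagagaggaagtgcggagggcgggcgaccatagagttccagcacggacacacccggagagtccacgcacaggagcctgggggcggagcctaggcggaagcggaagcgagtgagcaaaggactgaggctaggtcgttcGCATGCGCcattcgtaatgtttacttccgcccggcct
Tfam: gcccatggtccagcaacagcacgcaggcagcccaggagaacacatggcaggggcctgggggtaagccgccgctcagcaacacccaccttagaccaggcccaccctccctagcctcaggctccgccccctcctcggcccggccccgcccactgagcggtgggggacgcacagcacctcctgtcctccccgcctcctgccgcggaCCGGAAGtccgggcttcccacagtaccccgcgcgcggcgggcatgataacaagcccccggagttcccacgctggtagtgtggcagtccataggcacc
Polrmt: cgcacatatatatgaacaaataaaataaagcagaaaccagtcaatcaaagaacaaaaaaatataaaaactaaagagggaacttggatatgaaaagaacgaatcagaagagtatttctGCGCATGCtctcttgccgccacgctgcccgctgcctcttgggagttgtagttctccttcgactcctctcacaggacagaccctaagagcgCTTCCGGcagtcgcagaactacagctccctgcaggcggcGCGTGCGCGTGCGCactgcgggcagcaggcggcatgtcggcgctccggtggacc
Ssbp1: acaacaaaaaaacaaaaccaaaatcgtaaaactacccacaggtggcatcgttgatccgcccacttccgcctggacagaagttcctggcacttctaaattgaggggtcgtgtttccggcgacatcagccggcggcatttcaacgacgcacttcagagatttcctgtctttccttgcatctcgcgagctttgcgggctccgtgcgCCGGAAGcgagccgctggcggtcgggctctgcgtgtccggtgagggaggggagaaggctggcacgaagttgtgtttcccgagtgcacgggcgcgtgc
Polg2: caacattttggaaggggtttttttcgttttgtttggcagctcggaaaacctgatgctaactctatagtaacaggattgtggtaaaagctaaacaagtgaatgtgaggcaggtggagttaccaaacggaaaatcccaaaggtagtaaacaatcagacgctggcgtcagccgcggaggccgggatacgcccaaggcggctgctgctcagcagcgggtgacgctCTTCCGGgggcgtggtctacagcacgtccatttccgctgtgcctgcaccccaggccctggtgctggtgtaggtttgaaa
The capitals in Tfb2m are the NRF1 core on the opposite strand, those in Tfam, Ssbp1 and Polg2 are the ETS core, and those in Polrmt are 1 NRF1 core, the ETS core and the merged pair of NRF1 cores in that order. Over all factors, 5 windows hold the ETS core as their single match, those of Tfam and Ssbp1, which fell, of Polg2, which rose, and of Polg and Tefm, which passed in neither direction.

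Tfb2m, the factor that opens the promoter for the mitochondrial RNA polymerase, changed most. It lies on chromosome 1 from 179528055 to 179546267 on the minus strand (GENCODE vM21 annotation of GRCm38, the assembly that mm10 in the submitters' processing notes also names). Tfb2m was at 79.9, 83.3 and 68.7 CPM in the wild-type mice and at 16.2, 18.8 and 13.2 CPM in the Letmd1 KO mice. The lowest wild-type mouse was more than 3 times the highest KO mouse. Its level fell 4.86-fold, from 77.3 ± 7.64 to 16.0 ± 2.81 CPM (SD, n = 3 each), with a log2 fold change of -2.28 (SE, its standard error, 0.16, adjusted p = 1.18e-05 from edgeR). Of all genes tested, 1.32% had a more negative log2 fold change. The call held in all 13 alternative analyses, with log2 fold changes between -2.41 and -1.86.

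The start of Tfb2m faces that of Cnst, which encodes a protein that helps deliver gap junction proteins to the cell surface, on the opposite strand and 103 bases away. Cnst was picked out after its values were seen. It was at 77.2, 74.6 and 70.4 CPM in wild-type and at 9.67, 18.1 and 11.9 CPM in KO mice. Both genes fell by similar amounts, with a log2 fold change of -2.50 for Cnst (SE 0.21, adjusted p = 2.49e-05 from edgeR). Within a mouse, the count of Tfb2m was between 0.976 and 1.12 times that of Cnst in wild-type and between 1.04 and 1.67 times in KO mice. The exons of the genes do not overlap. Among 823 pairs of tested genes with starts within 1000 bases on opposite strands, both genes were lower in 78 pairs (9.48%) and 1 gene alone was lower in 306, and Tfb2m with Cnst was the 1 pair in which both had a log2 fold change of -2 or less, a limit that was chosen after these values were seen.

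Tfam, which packages mitochondrial DNA and bends it at the promoters, lies on chromosome 10 from 71225464 to 71238280 on the minus strand. Its level was 65.8, 66.8 and 61.5 CPM in the wild-type mice and 46.5, 38.2 and 40.4 CPM in the KO mice. The genotypes did not overlap. The means were 64.7 ± 2.78 and 41.7 ± 4.27 CPM (SD, n = 3 each), with a log2 fold change of -0.63 (SE 0.12, adjusted p = 0.0022 from edgeR). The call was lost with library size alone (-0.21, adjusted p = 0.179) and held without any 1 mouse, with log2 fold changes between -0.72 and -0.58.

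Polrmt, the gene of the mitochondrial RNA polymerase, lies on chromosome 10 from 79736123 to 79746581 on the minus strand. It was at 23.0, 30.6 and 25.8 CPM in wild-type and at 18.2, 18.4 and 17.1 CPM in KO mice. The KO mice lay close together, below each wild-type mouse. From 26.5 ± 3.88 to 17.9 ± 0.733 CPM (SD, n = 3 each), Polrmt fell by 0.57 on the log2 scale (SE 0.15, adjusted p = 0.0129 from edgeR). That call rests on single mice: without wild-type mouse 2 it was -0.47 (adjusted p = 0.0560) and without KO mouse 3 it was -0.53 (adjusted p = 0.0538), and with library size alone it was -0.15 (adjusted p = 0.442).

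Tefm, the elongation factor of the same polymerase, lies on chromosome 11 from 80136678 to 80142175 on the minus strand. Its level was 17.1, 13.5 and 16.3 CPM in the wild-type mice and 12.0, 8.34 and 13.5 CPM in the KO mice. The highest KO mouse reached the lowest wild-type mouse, so the genotypes overlapped. The log2 fold change of -0.46 (95% confidence interval -0.94 to 0.022) did not pass the test (adjusted p = 0.108 from edgeR), and with quantile normalization and limma it was -0.70 and passed (adjusted p = 0.0371).

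Tfb1m, a relative of Tfb2m whose product methylates the RNA of the small mitochondrial ribosomal subunit, lies on chromosome 17 from 3519256 to 3557781 on the minus strand. It was at 6.90, 8.38 and 10.7 CPM in wild-type and at 11.5, 12.0 and 12.0 CPM in KO mice. All KO mice lay above all wild-type mice, by a narrow margin over wild-type mouse 3. The log2 fold change of 0.46 (95% confidence interval -0.017 to 0.94) did not pass the test (adjusted p = 0.105 from edgeR), but without wild-type mouse 3 it was 0.62 and passed (adjusted p = 0.0372), as it did with library size alone (0.88, adjusted p = 0.00621). The last exon of Tfb1m overlaps that of Tiam2, an activator of Rac, by 142 bases on the opposite strand. Tiam2 had 35, 67 and 65 counts in wild-type and 100, 61 and 166 in KO mice. Its CPM overlapped between the genotypes, and it did not pass the test (log2 fold change 0.58, adjusted p = 0.143 from edgeR). The use of strand in the authors' counting was not given in the sources used here, so reads from those bases cannot be told apart.

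Among the replication factors, Ssbp1, the single-strand binding protein, lies on chromosome 6 from 40471352 to 40484700 on the plus strand. Its level was 50.6, 52.7 and 59.7 CPM in the wild-type mice and 40.2, 35.9 and 42.9 CPM in the KO mice. No KO mouse reached a wild-type mouse. The means were 54.3 ± 4.79 and 39.7 ± 3.54 CPM (SD, n = 3 each), with a log2 fold change of -0.45 (SE 0.13, adjusted p = 0.0167 from edgeR), and the call was lost with library size alone (-0.028, adjusted p = 0.868). The annotation holds a near copy of the end of the Ssbp1 transcript, Gm12115 (97.5% identity over 405 bases), with no row of its own in the count files, and multiple alignments were counted.

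Polg, the catalytic subunit of the mitochondrial DNA polymerase, lies on chromosome 7 from 79446231 to 79466362 on the minus strand. It was at 35.4, 30.0 and 24.6 CPM in the wild-type mice and at 25.9, 26.7 and 27.8 CPM in the KO mice. All 3 KO values lay within the wild-type range. The log2 fold change was -0.16 (95% confidence interval -0.51 to 0.19, adjusted p = 0.424 from edgeR), and it was 0.26 with library size alone. Polg shares 921 exon bases with Fanci, a DNA repair gene on the opposite strand, none of them within the last 500 bases of the Polg gene, but the end of a Polg transcript matches Fanci over 96 bases at 99.0% identity, and without the strand reads from shared bases cannot be told apart. Fanci did not pass the test (log2 fold change -0.22, adjusted p = 0.328 from edgeR).

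Polg2, the accessory subunit that tightens the grip of the polymerase on DNA, lies on chromosome 11 from 106768253 to 106779537 on the minus strand. With 27, 28 and 15 counts in wild-type and 42, 37 and 77 in KO mice it had the lowest counts of the 10 factors, and counting error alone is 25.8% of its lowest value. Its level was 2.91, 2.97 and 1.96 CPM in the wild-type mice and 4.62, 4.90 and 4.53 CPM in the KO mice. The genotypes were well apart, and the log2 fold change was 0.83 (SE 0.30, adjusted p = 0.0480 from edgeR). This call is the least secure of the 6: of 12 alternative analyses that could test the gene, it passed in 1, library size alone (1.24, adjusted p = 0.00682), and in the others the log2 fold change was between 0.34 and 0.94.

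The end of Polg2 overlaps Milr1, a receptor of mast cells, by 132 exon bases on the opposite strand, 90 of them within the last 500 bases of the Polg2 gene. Milr1 was picked out after its values were seen. Its counts were 10, 8 and 10 in wild-type and 37, 39 and 80 in KO mice, with a log2 fold change of 2.11 (SE 0.35, adjusted p = 0.00116 from edgeR). Polg2 had 1.5 to 3.5 times the counts of Milr1 in wild-type and 0.949 to 1.14 times in KO mice. Without the strand, reads of Milr1 in those bases and reads of Polg2 cannot be told apart.

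**Figure D3:**
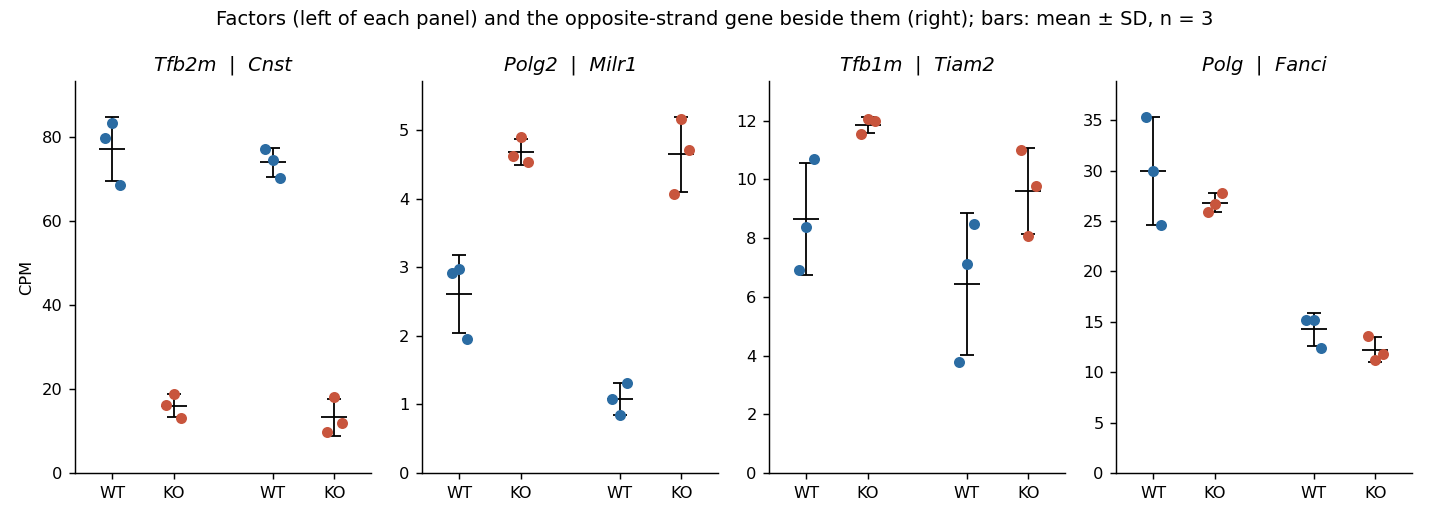
Level in CPM (vertical axes, each from 0) of 4 factors and of the opposite-strand gene next to or overlapping each, with 1 point per mouse (wild type blue, Letmd1 KO red) and bars for mean ± SD (n = 3). Tfb2m and Cnst fall together to 16.0 and 13.2 CPM, Polg2 and Milr1 both lie higher in KO mice, and the pairs of Tfb1m with Tiam2 and of Polg with Fanci lie closer between genotypes.

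Nrf1, nuclear respiratory factor 1, a transcription factor for many genes of the respiratory chain and of mitochondrial DNA upkeep, lies on chromosome 6 from 30047988 to 30153458 on the plus strand. It was at 13.4, 10.4 and 16.6 CPM in the wild-type mice and at 24.6, 20.4 and 25.3 CPM in the KO mice. Every KO mouse was above every wild-type mouse. Its level rose 1.75-fold, from 13.4 ± 3.09 to 23.4 ± 2.68 CPM (SD, n = 3 each), with a log2 fold change of 0.81 (SE 0.19, adjusted p = 0.00786 from edgeR). Nrf1 passed under all 3 scalings and without any 1 mouse, with log2 fold changes between 0.58 and 1.24 over all alternatives, and missed the threshold when both muscle-rich libraries were left out (0.58, adjusted p = 0.105).

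Gabpa, the DNA-binding subunit of the GABP transcription factor, lies on chromosome 16 from 84834925 to 84863779 on the plus strand. Its level was 26.8, 27.1 and 27.0 CPM in the wild-type mice and 26.9, 24.6 and 32.9 CPM in the KO mice. The wild-type mice fell inside the KO range. The log2 fold change was 0.067 (95% confidence interval -0.26 to 0.39, adjusted p = 0.734 from edgeR), and with library size alone it was 0.49 and passed (adjusted p = 0.0213). Its partner subunits stood at log2 fold changes of 0.25 for Gabpb1 (adjusted p = 0.370) and 0.41 for Gabpb2 (adjusted p = 0.0286). Gabpa shares 397 exon bases at its start with Atp5j, a subunit of ATP synthase on the opposite strand, none within its last 500 bases.

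Leaving out the libraries richest in muscle RNA, wild-type mouse 2 (392 CPM summed over the muscle markers) and KO mouse 3 (1208 CPM), was added after the data were seen. It left 2 mice a genotype and 3889 of 12898 genes past the threshold (1912 lower and 1977 higher), in place of 5978 of 12995. Of the factors, 2 were lower (Tfb2m and Tfam) and 0 higher (1 at an unadjusted p under 0.05, from edgeR). The log2 fold changes of the 4 lost calls were -0.42 for Polrmt (adjusted p = 0.160), -0.55 for Ssbp1 (adjusted p = 0.0628), 0.58 for Nrf1 and 0.94 for Polg2 (adjusted p = 0.154), in the same direction as with all mice. Those of Tfb2m and Tfam were -2.10 (adjusted p = 0.000542) and -0.60 (adjusted p = 0.0434).

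Ordered by level in wild-type BAT, in CPM of a library that reads 1 end per transcript, Tfb2m (77.3) came first, before Tfam (64.7), Ssbp1 (54.3), Polg (30.0), Gabpa (27.0), Polrmt (26.5), Tefm (15.6), Nrf1 (13.4), Tfb1m (8.66) and Polg2 (2.61). Neighbours whose mice overlapped were Polg with Gabpa, Gabpa with Polrmt, Tefm with Nrf1, and Nrf1 with Tfb1m. In Letmd1 KO BAT the order was Tfam (41.7), Ssbp1 (39.7), Gabpa (28.2), Polg (26.8), Nrf1 (23.4), Polrmt (17.9), Tfb2m (16.0), Tfb1m (11.9), Tefm (11.3) and Polg2 (4.68). Tfb2m thus moved from rank 1 to rank 7 and Nrf1 from rank 8 to rank 5. In the KO order, neighbours whose mice overlapped were Tfam with Ssbp1, Gabpa with Polg, Polrmt with Tfb2m, and Tfb1m with Tefm. Factors further apart in that order overlapped too. Nrf1 (20.4 to 25.3 CPM) overlapped Gabpa (24.6 to 32.9 CPM), and Tefm (8.34 to 13.47 CPM) overlapped Tfb2m (13.17 to 18.8 CPM).

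Ratios of paired factors within a mouse are free of the single factor that scales its library, apart from the small prior count, but quantile normalization, which remaps each gene by its rank, can change them. With 3 mice against 3, the exact permutation test (two-sided) cannot give a p below 0.1, which is 0.2 when adjusted over the 6 pairs compared. The log2 ratio of Tfb1m to Tfb2m was -3.50, -3.28 and -2.66 in wild-type and -0.48, -0.63 and -0.13 in KO mice. Tfb2m thus exceeded Tfb1m several-fold in wild-type BAT and by far less in KO BAT, a difference of 2.73 with no overlap (exact permutation p = 0.1). The limit on Tfb1m given above, from bases shared with Tiam2, applies to this ratio.

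For the polymerase and its accessory subunit, the log2 ratio of Polg to Polg2 was 3.51, 3.25 and 3.53 in wild-type and 2.44, 2.40 and 2.57 in KO mice. These did not overlap either, a change of -0.96 (exact permutation p = 0.1), with the limit on Polg2 given above, and it was -0.50 under quantile normalization. The log2 ratio of Nrf1 to Gabpa was -1.0, -1.37 and -0.70 in wild-type and -0.13, -0.27 and -0.38 in KO mice, a difference of 0.76 without overlap (exact permutation p = 0.1). All 3 ratios kept their direction in all 9 alternative analyses. Ratios that do not overlap cannot change direction when mice are left out, so those alternatives were no test of it. Quantile normalization could have changed it, and there the difference was 2.47 for Tfb1m to Tfb2m and 0.66 for Nrf1 to Gabpa.

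The other 3 ratios overlapped between genotypes. Tfam to Polrmt had a mean log2 ratio of 1.29 ± 0.199 in wild-type and 1.21 ± 0.148 in KO mice (SD, n = 3 each; exact permutation p = 0.6). Tfam to Ssbp1 had 0.25 ± 0.183 and 0.072 ± 0.148 (exact permutation p = 0.3), and Tefm to Polrmt -0.75 ± 0.387 and -0.69 ± 0.401 (exact permutation p = 0.7). A p of this size in so small a design does not show that these ratios were equal.

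**Figure D4:**
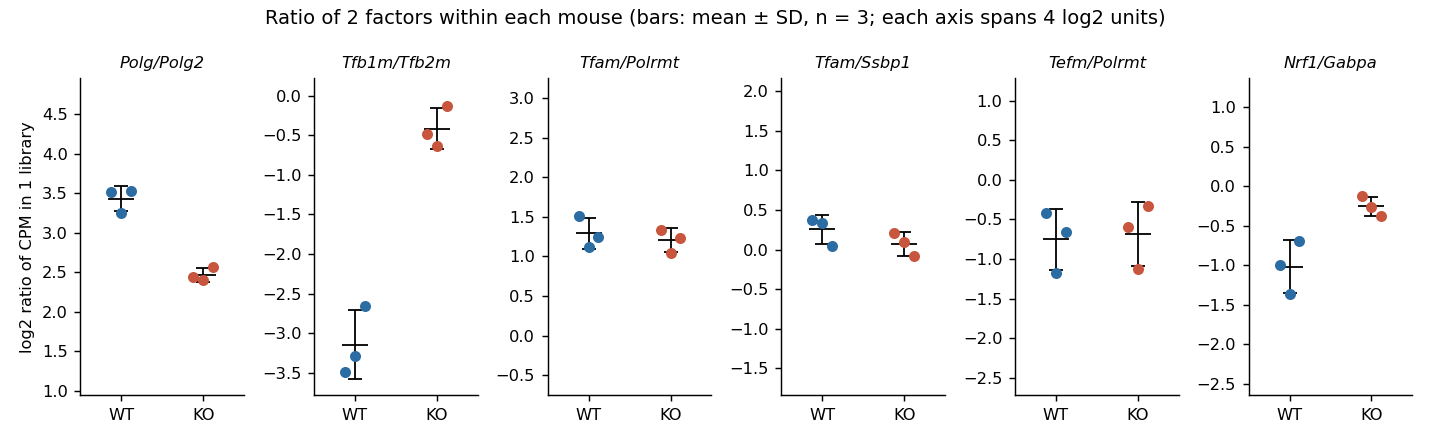
Log2 ratio of CPM of paired factors within each mouse (vertical axes, each spanning 4 log2 units), wild type in blue and Letmd1 KO in red, with bars for mean ± SD (n = 3). The genotypes separate for Polg/Polg2, Tfb1m/Tfb2m and Nrf1/Gabpa and overlap for Tfam/Polrmt, Tfam/Ssbp1 and Tefm/Polrmt.

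As a description of likeness over the 6 mice, centred log2 CPM were compared by their root mean square difference. Among the factors the closest were Tfam and Polrmt (0.15), Tfam and Ssbp1 (0.16), and Polrmt and Ssbp1 (0.18), and the farthest were Tfb2m and Nrf1 (1.58). Among 10327 tested genes with a mean of at least 50 counts, Zbtb41 was closest to Tfam (0.031), Mtfr1 to Polrmt (0.043), Bsg to Ssbp1 (0.039), Egflam to Nrf1 (0.079) and Kmt2c to Polg (0.029). Tfb2m had no gene as near as these, with Fam126b (0.085), Fbp2 (0.12) and Eri2 (0.14) the closest. The mice comprise both genotypes, so genes with a like difference between genotypes come out as near by construction.

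The rest of the pathway was listed beside the factors. Of 16 other genes of mitochondrial DNA replication and maintenance, 3 were lower and 5 higher (22.3% and 23.7% of all genes), with a median log2 fold change of 0.40. The replicative helicase Twnk, at 13.4 ± 1.09 CPM in wild-type and 13.1 ± 1.42 CPM in KO mice (SD, n = 3 each), did not pass the test (log2 fold change -0.026, adjusted p = 0.916 from edgeR), nor did the nuclease Mgme1 (-0.26, adjusted p = 0.183). Lonp1, the matrix protease that degrades TFAM, rose from 167 ± 9.81 to 471 ± 61.4 CPM (log2 fold change 1.49), and so did Fen1 (1.82) and Dna2 (1.60), nucleases that also serve nuclear DNA. Atad3a, a membrane protein of the nucleoid, fell from 73.4 ± 11.3 to 35.7 ± 2.56 CPM (-1.04), as did the mitochondrial topoisomerase Top1mt (-1.0) and the inner membrane protein Mpv17 (-0.35). With library size alone 1 was lower and 9 higher (10.5% and 45.4% of all genes), and under quantile normalization 2 and 4 (23.7% and 20.9%).

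Of 12 genes of mitochondrial nucleotide supply, 4 were lower and 3 higher (22.3% and 23.7% of all genes), with a median of -0.33. The subunits of succinyl-CoA ligase, a citric acid cycle enzyme that partners with nucleoside diphosphate kinase, fell by 1.23 (Suclg1), 0.91 (Suclg2) and 0.87 (Sucla2) on the log2 scale. Suclg1 went from 1809 ± 47.6 to 770.0 ± 143 CPM (SD, n = 3 each). The genes that rose were Nme4 (1.47), a mitochondrial nucleoside diphosphate kinase, Samhd1 (1.40), which degrades deoxynucleotides and is abundant in macrophages, and Cmpk2 (0.73), a mitochondrial nucleotide kinase induced by interferon. Macrophage markers rose in the same mice, and their part in these genes was not tested. With library size alone 3 each fell and rose (10.5% and 45.4% of all genes), and under quantile normalization 4 fell and 1 rose (23.7% and 20.9%). There Suclg1 was at -0.46 (adjusted p = 0.0445 from limma), Sucla2 lost its call (-0.077, adjusted p = 0.713) and Slc25a36, a carrier of pyrimidine nucleotides, gained one (-0.98, adjusted p = 0.0137).

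Of 21 other genes of mitochondrial transcription and RNA processing, 7 were lower and 0 higher (22.3% and 23.7% of all genes), with a median of -0.29. At an unadjusted p under 0.05 in edgeR, 0 were higher. Past the threshold, 0 were higher in DESeq2, in limma after quantile normalization and in edgeR with library size alone. At an unadjusted p under 0.05 from edgeR, 2 were higher with library size alone and 1 without KO mouse 1. Hsd17b10, a subunit of the RNase that frees mitochondrial tRNAs, fell from 255 ± 13.8 to 98.6 ± 17.9 CPM (log2 fold change -1.37). Fastkd1 (-1.04) and Fastk (-0.81), of a family that handles mitochondrial RNA, fell too. Neither the transcription regulator Mterf3 (-0.18, adjusted p = 0.614) nor Lrpprc (-0.56, adjusted p = 0.10), which stabilizes mitochondrial mRNA, passed the test in edgeR, and Lrpprc passed in DESeq2 (-0.58, adjusted p = 0.0373). With library size alone 3 of the 21 were lower (10.5% of all genes), and under quantile normalization 8 (23.7%).

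Of 13 tested regulators of mitochondrial biogenesis, 3 were lower and 2 higher (22.3% and 23.7% of all genes), with a median of -0.22. Esrrb did not pass the filter on low counts. Ppargc1b, a coactivator of NRF1 and of the estrogen-related receptors, fell from 427 ± 4.28 to 201 ± 45.4 CPM (SD, n = 3 each; log2 fold change -1.08). Its relative Ppargc1a went from 261 ± 76.5 to 181 ± 45.2 CPM and did not pass the test (-0.52, adjusted p = 0.0906 from edgeR), but passed in DESeq2 (adjusted p = 0.0421). Perm1 (-0.96) and the estrogen-related receptor Esrra (-0.44) were lower, and Nfe2l2 (0.79), a regulator of the response to oxidants, and Gabpb2 were higher. Gabpb2 missed the threshold in DESeq2 (0.39, adjusted p = 0.0541), where 1 regulator was higher. With library size alone 1 was lower and 6 higher (10.5% and 45.4% of all genes), with Esrra at -0.015 (adjusted p = 0.908 from edgeR). Under quantile normalization 2 were lower and 2 higher (23.7% and 20.9%). Transcripts of mitochondrial DNA itself were not analysed here.

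**Figure D5:**
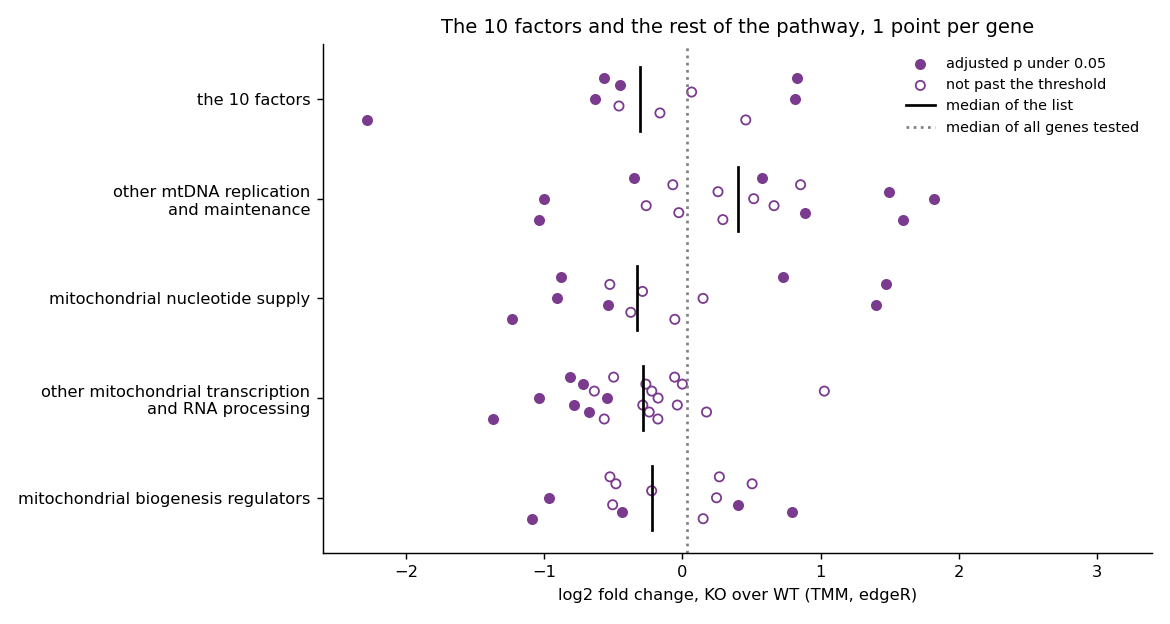
Log2 fold change, KO over wild type (horizontal axis), of the 10 factors and of 4 lists of related genes, 1 point per gene, filled where the adjusted p is under 0.05, with the median of each list (bar) and of all genes tested (dotted line). Tfb2m at -2.28 lies apart from every other gene shown, the RNA processing list has filled points at negative values alone, and the maintenance list spreads to both sides.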

How the data were processed

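BAT of 3 wild-type and 3 Letmd1 KO mice was sequenced from the 3′ end. The authors aligned the reads with Bowtie2, counted them per gene with bedtools, and deposited raw counts for each mouse, in whole numbers and without normalization. The submitters' processing notes name the build mm10. Tool versions, the gene annotation and the use of strand in counting were not given in the sources used here. Groups came from the genotype labels.

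Counts were tested in R 4.3.3 with edgeR 4.0.16 (TMM scaling, quasi-likelihood test, a minimum count of 10 and total of 15, Benjamini-Hochberg adjustment, threshold 0.05). CPM are counts over the TMM-scaled library size, and log2 CPM used a prior count of 2. For ratios within a mouse, exact permutation tests (two-sided) were used. Of the 23282 rows, 5588 held no counts and 12995 were tested. The alternatives were library size alone, quantile normalization with limma 3.58.1, DESeq2 1.42.0, no filter, a mean of at least 50 counts, the replicate number as a block, each mouse left out, and both muscle-rich libraries left out (added after the data were seen). The steps were also run on simulated counts in which few genes were changed, up and down alike. Such counts do not test the difference in scaling between the genotypes seen here.

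The factors and gene lists were chosen with earlier results of these data known. All 10 factors are described; of each other list, up to 3 genes that fell most and 3 that rose most past the threshold are named, and 10 genes whatever their result. Every list gene had a row except the 15 transcripts of mitochondrial DNA. Twnk is listed as Peo1 and Prorp as 1110008L16Rik. The lowest count of a factor was 15 and the highest 786, which sets the counting error; intervals of fold changes come from the spread between mice. Positions came from GENCODE vM21 (GRCm38) and promoters from RefSeq (GRCm38.p6).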

Additional observations from a re-analysis of the deposited data

How the results depend on the processing

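With library size alone, the factors lower and higher in KO mice numbered 1 and 4, 1 maintenance gene, 3 RNA processing genes and 1 biogenesis regulator were lower, and the log2 fold change of Polg was 0.26, because this scaling moves all genes by 0.42. The count of factors higher was 1 with quantile normalization, with DESeq2, without the filter, with a mean of at least 50 counts (where Polg2 was removed and 9 factors tested) and with the replicate block. Biogenesis regulators lower were 5 with DESeq2 and 5 with the replicate block, and those higher 1 with each. Mice with the same replicate number did not deviate together (correlations 0.13, -0.11 and -0.11), so the numbers were not taken as pairs. Among the factors, the block lost 1 factor call, Polg2 (log2 fold change 0.86, adjusted p = 0.0826 from edgeR). With quantile normalization the difference between genotypes was 0.11 for the log2 ratio of Tfam to Polrmt and -0.061 for that of Tefm to Polrmt, against -0.084 and 0.064. Leaving out each mouse put 4842 to 5868 genes past the threshold, of 13064 to 13416 tested. It gave 1 to 2 factors higher and 3 to 4 lower, 1 to 3 maintenance genes lower and 2 to 5 biogenesis regulators lower. The log2 fold changes of Gabpa were between -0.066 and 0.15. The differences were between -0.17 and 0.024 for Tfam to Polrmt and between -0.15 and 0.28 for Tefm to Polrmt. The lowest maintenance count came without KO mouse 1 and the highest biogenesis count without wild-type mouse 3. Without both muscle-rich libraries, 3889 of 12898 genes passed the threshold (1912 lower and 1977 higher), and 2 factors were lower and 0 higher. There the log2 fold change of Gabpa was -0.075 and the Tefm to Polrmt difference -0.32, and fewer mice were tested. Otherwise the cause was not tested. Nucleotide supply genes lower numbered 3 or 4 throughout. Low counts limit Polg2 most, and 3 mice a genotype limit the ratios.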

Other observations

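The genes closest to the remaining factors over the 6 mice, by root mean square difference of centred log2 CPM, were Tspan9 for Tfb1m (0.055), Tipin for Polg2 (0.040), Ttc32 for Tefm (0.077) and Usp19 for Gabpa (0.032). In maintenance, the repair genes Ogg1 and Exog were also higher, with log2 fold changes of 0.57 and 0.89. Exog missed the threshold in DESeq2 (0.87, adjusted p = 0.0592). It did so too under quantile normalization (0.39, adjusted p = 0.299 from limma). Dguok, which makes deoxyguanosine monophosphate in mitochondria, was lower (53.4 ± 4.48 to 36.8 ± 3.23 CPM, SD, n = 3 each), and the mitochondrial thymidine kinase Tk2 was at 17.1 ± 1.33 and 16.5 ± 3.15 CPM (adjusted p = 0.830 from edgeR). Of the RNA processing genes, Supv3l1 (-0.78), Tbrg4 (-0.72), Grsf1 (-0.68) and Slirp (-0.55) completed the 7 that were lower. These genes were named after their values were seen.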
